A study of Homo sapiens with 12 samples.

Results

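The hypoxia and glycolysis genes described here are 38 named genes of oxygen sensing, VEGF signalling and glucose breakdown, of which 37 were measured among 19775 genes on 12 expression arrays of Ewing sarcoma cells. A gene was taken from probe sets, the groups of short probes that report one transcript, whose platform annotation gave its symbol alone, and the set with the highest mean over the 12 arrays stood for the gene. CA9 had no probe set with its symbol alone and was not analysed here. The rule itself used no treatment effect, but the genes were listed with earlier results of these data in view. The 11 regulators were the hypoxia-inducible factors, their prolyl hydroxylases, the VEGF ligands and the PFKFB enzymes, and they were set beside 15 core glycolytic enzymes in each line.

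Both cell lines, TC32 and TC71, are established Ewing sarcoma lines. Each received either solvent or mithramycin at 100 nM, an antibiotic that binds GC-rich DNA, and RNA was taken after 6 h. That gave 4 groups of 3 arrays, TC32 control, TC32 mithramycin, TC71 control and TC71 mithramycin, which the labels describe as biological replicates. Per the labels, all cells were held in standard growth conditions, and no group kept at low oxygen was analysed here. The labels describe no genotype or further treatment that separates the groups. The comparison asked what mithramycin did to transcripts in each line. Each line is a single cell model, so a difference between them is a difference between these lines.

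In cells with enough oxygen, prolyl hydroxylases such as EGLN1 and EGLN3 mark the HIF alpha subunits for destruction through the VHL ubiquitin ligase. At low oxygen the alpha subunits HIF1A and EPAS1 persist, pair with ARNT and switch on genes for blood vessel growth, glucose uptake and glycolysis. HIF1A is governed largely through protein stability, so its mRNA need not follow its activity. PFKFB enzymes set the level of fructose 2,6-bisphosphate, an activator of phosphofructokinase, and so act on glycolysis from outside the pathway itself. Many tumour cells, Ewing sarcoma among them, draw heavily on glycolysis even when oxygen is present.

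The sequence just before 6 transcript starts is shown because mithramycin binds GC-rich DNA. Among the members with a window, PFKFB3, HK2 and ARNT had the largest falls in the mean of both lines and ALDOC the largest rise, and GAPDH was called in neither line. Each run holds the 250 bases before a RefSeq start on GRCh38.p14, read 5′ to 3′ on the gene's strand, with capitals marking the GC box GGGCGG on either strand.
PFKFB3 start 1 (chr10:6144671-6144920, plus strand): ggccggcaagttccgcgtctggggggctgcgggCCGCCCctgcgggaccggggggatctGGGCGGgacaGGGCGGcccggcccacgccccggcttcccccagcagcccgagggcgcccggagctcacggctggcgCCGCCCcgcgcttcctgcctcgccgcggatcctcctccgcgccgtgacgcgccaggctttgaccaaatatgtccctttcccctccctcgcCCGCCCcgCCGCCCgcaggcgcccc
PFKFB3 start 2 (chr10:6202682-6202931, plus strand): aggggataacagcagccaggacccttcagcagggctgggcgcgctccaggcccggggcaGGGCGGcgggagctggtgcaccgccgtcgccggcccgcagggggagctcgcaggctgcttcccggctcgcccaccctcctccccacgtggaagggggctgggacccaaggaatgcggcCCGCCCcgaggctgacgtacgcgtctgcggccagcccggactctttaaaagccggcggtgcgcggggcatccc
HK2 start 1 (chr2:74833877-74834126, plus strand): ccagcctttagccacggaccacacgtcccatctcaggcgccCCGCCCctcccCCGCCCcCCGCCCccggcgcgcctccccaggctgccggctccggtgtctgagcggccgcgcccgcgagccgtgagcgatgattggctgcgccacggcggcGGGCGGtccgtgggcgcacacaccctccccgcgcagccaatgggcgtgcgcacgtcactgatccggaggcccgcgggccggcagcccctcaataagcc
ARNT (chr1:150876600-150876849, minus strand): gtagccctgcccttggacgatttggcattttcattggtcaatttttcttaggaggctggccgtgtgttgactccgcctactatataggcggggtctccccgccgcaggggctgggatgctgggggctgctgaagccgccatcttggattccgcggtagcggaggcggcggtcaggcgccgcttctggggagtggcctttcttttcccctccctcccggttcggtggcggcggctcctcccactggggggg
ALDOC (chr17:28576896-28577145, minus strand): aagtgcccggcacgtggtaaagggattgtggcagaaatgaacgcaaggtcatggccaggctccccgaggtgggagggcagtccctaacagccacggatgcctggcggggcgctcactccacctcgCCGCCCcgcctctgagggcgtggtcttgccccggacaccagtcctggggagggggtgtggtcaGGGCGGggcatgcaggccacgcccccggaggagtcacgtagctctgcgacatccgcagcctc
GAPDH (chr12:6535014-6535263, plus strand): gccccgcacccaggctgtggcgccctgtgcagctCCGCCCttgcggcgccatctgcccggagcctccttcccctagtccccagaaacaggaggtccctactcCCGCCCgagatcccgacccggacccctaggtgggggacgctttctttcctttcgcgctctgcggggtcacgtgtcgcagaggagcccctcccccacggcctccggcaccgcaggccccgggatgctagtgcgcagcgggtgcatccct

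PFKFB3 held 6 GC boxes before its first start and 2 before its second, the printed HK2 window held 4, and the ALDOC and GAPDH windows held 2 each. RefSeq windows were taken for 33 of the 38 symbols, with 57 windows in all. Member windows on chr8 were left out, a filter that was not applied to all windows of the table. Of those 57 windows, 64.9% held at least 1 GC box, against 42.6% of all 35116 windows in the table. The median GC content was 68.4% in the member windows and 58% in all windows. HK1 and PFKM had 7 windows each, some of them overlapping, so the windows were not independent. The core hypoxia motif, searched as ACGTG or GCGTG on both strands with overlaps counted, was in 59.6% of the member windows and in 43.2% of all windows. Among members called lower in each line, 5 had windows, and 6 of their 7 windows held a GC box. VEGFA, also called lower in each line, had no window and is absent from these counts. Among members called in neither line, 15 had windows, and 14 of their 19 windows held one. The high counts fell on both sides: EPAS1 with 7 and EGLN1 with 6 were called lower, while PFKL with 7, BNIP3 with 6 and VEGFB with 6 were called in neither line. ARNT was called lower and had 0 GC boxes in the printed window. These matches describe letters in a window, and no binding was measured.

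Values below are RMA log2 signals, so a change of 1 is a 2-fold change, and a call means a Benjamini-Hochberg adjusted p under 0.05 over all 19775 genes in limma. Arrays of a group correlated at 0.9948 to 0.9976 over all probe sets. Of 8 Ewing sarcoma markers, 7 lay above the array median on every array and PAPPA fell below it on 2. In TC32 4 of the 8 were called lower and 0 higher, beside 19.4% and 25.6% of all genes. In TC71 3 were called lower and 1 higher, beside 16.1% and 19.4% of all genes. The falls were led by BCL11B (-2.65 and -2.59) and PAPPA (-2.29 and -2.89). The summed linear signal of the 8 markers ran from 10386.7 to 10897.5 in TC32 controls against 8030.4 to 8290.5 with mithramycin. In TC71 this sum ran from 9475.7 to 9698.9 against 7397.7 to 7522.3.

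Markers of other cell types were read the same way. All 5 epithelial markers, 3 of 4 blood markers, 3 of 5 endothelial, 2 of 5 neural and 1 of 5 fibroblast markers lay below the array median on every array. HBB of red cells, CLDN5 of endothelium, SYP of neurons and the matrix genes COL3A1 and FBLN1 lay above it on every array, COL3A1 at 9.38 to 11.58. In TC32, 2 blood markers and 1 each of the epithelial, endothelial and neural markers rose, and 0 of the fibroblast markers did. Among these risers CD14, KRT5, VWF and GFAP lay below the array median on every array. Over all genes 25.6% were called higher in TC32 and 19.4% in TC71. In TC71, the fibroblast genes DCN, LUM and COL3A1 and the endothelial VWF rose, and the summed linear signal of the 5 fibroblast genes ran from 1040.9 to 1054.4 in controls and from 1295.9 to 1408.8 with mithramycin. The part of these markers in the members' changes was not tested. TC71 controls also differed in beta-actin 3′ minus 5′ signal, a measure of RNA integrity, at 1.454 ± 0.483 (SD, n = 3) against 0.881 ± 0.101 with mithramycin, with 1 control at 2.0, while TC32 stood at 0.713 ± 0.036 and 0.603 ± 0.084. In bulk RNA, fewer cells expressing a gene and less RNA per cell cannot be told apart.

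With mithramycin a small set of members fell strongly, and most glycolytic enzymes moved little. In TC32, 9 of 37 members fell and 5 rose, or 24.3% and 13.5%, against 19.4% of all genes called lower and 25.6% called higher. In TC71, 8 fell and 9 rose, or 21.6% and 24.3%, against 16.1% and 19.4% of all genes. The share of falls was a little above that of all genes in each line, and the share of rises was below it in TC32 and above it in TC71. The TC71 falls numbered 7 without control replicate 1, the array that stood apart in beta-actin, 4 without control replicate 2 and 5 without mithramycin replicate 3. The median change over the members was 0.05 in TC32 and 0.07 in TC71, beside 0.08 and 0.07 over all genes.

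VEGFA, PFKFB3, HK2, ARNT, EPAS1 and EGLN1 fell in each line, and GPI, ALDOC and PKM rose in each line. Another 16 members, HIF1A, LDHA, LDHB, GAPDH, PGK1 and ENO1 among them, were called in neither. The shares of all genes called in each line, or in neither, are not given here, so these counts stand without a background. In the mean of both lines 10 members rose and 10 fell, 27% in each direction, where 32.9% of all genes were called higher and 20.9% lower. The line effects were computed from separate arrays. The 4 largest falls in TC32, those of PFKFB3, ARNT, VEGFA and HK2, were also the 4 largest in TC71.

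**Figure D1:**
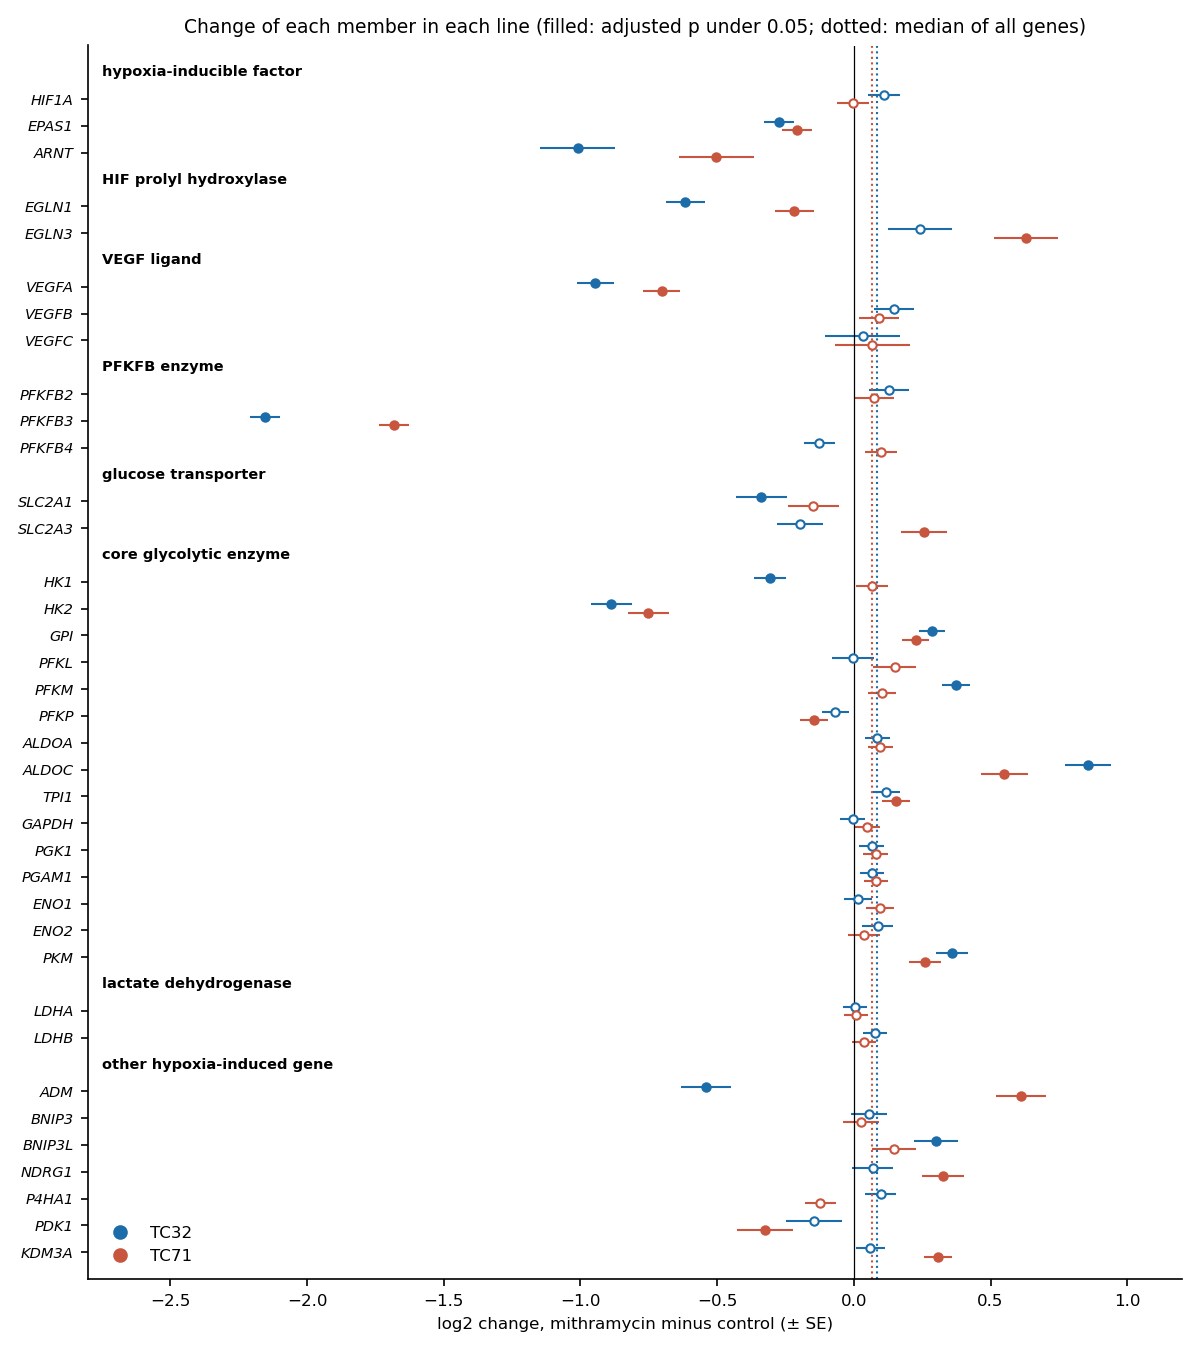
Log2 change with mithramycin for each of the 37 members (points, with the standard error as bars), grouped by role, in TC32 (blue) and TC71 (red), with calls filled and dotted lines at the median of all genes. PFKFB3 lies far to the left in each line, VEGFA, HK2 and ARNT follow, and most enzymes from GPI down to LDHB sit near the dotted lines, with ALDOC the exception on the right.

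Among the HIF subunits, the constant partner ARNT fell most. ARNT read 6.49, 6.64 and 6.70 in TC32 controls and 5.26, 5.97 and 5.56 with mithramycin, and 6.62, 6.81 and 6.68 in TC71 controls against 6.18, 6.24 and 6.18. All treated arrays lay below all controls of their line, with the treated TC32 arrays widely spread. The falls were 1.01 ± 0.14 (SE) in TC32 and 0.50 ± 0.14 in TC71, and the difference between the lines missed the threshold (adjusted p = 0.139 in limma). ARNT has 7 probe sets with changes in TC32 from -1.01 to 0.28, the latter called higher. The TC71 call ended without control replicate 2.

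HIF1A, the oxygen-regulated alpha subunit, read 9.66, 9.73 and 9.62 in TC32 controls and 9.68, 9.83 and 9.83 with mithramycin. In TC71 it read 9.35, 9.45 and 9.40 and then 9.41, 9.40 and 9.38. The groups overlapped in each line, and neither change was called (0.11 ± 0.06 and -0.004 ± 0.06). EPAS1, which encodes HIF-2 alpha, fell by 0.27 ± 0.06 and 0.21 ± 0.06 with no overlap between groups.

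At their brightest sets, EGLN1 fell in each line and EGLN3 rose in TC71. EGLN1, the main oxygen sensor of the family, read 8.01, 8.10 and 7.96 in TC32 controls against 7.27, 7.55 and 7.41 with mithramycin, and 8.69, 8.67 and 8.68 against 8.49, 8.51 and 8.39 in TC71. It fell by 0.62 ± 0.07 and 0.22 ± 0.07, without overlap, and the TC32 fall was the larger (difference 0.40 ± 0.10, adjusted p = 0.0276). Its other probe sets read the opposite way: 2 of its 4 sets were called higher in each line, at 0.40 and 0.55 in TC32, and with the mean of its sets the change turned to 0.14 in TC32 and 0.25 in TC71. The direction for EGLN1 thus belongs to its brightest set, and its TC71 call ended in 5 of the 6 fits without a TC71 array, that without mithramycin replicate 2 being the exception.

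EGLN3, a hydroxylase that is itself HIF-induced, read 5.21, 5.42 and 5.23 in TC32 controls and 5.39, 5.86 and 5.34 with mithramycin. TC71 arrays read 4.70, 4.67 and 4.65 and then 5.32, 5.21 and 5.39. It rose in TC71 by 0.63 ± 0.12 with no overlap, while in TC32 the groups overlapped and the change of 0.24 ± 0.12 was not called. The difference between lines was not called either (0.39, adjusted p = 0.19), and a second, dimmer EGLN3 set was called lower in TC32, at -0.62.

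Of the VEGF ligands, VEGFA alone was called in either line. VEGFA, the main growth factor for blood vessels, read 8.85, 8.62 and 8.78 in TC32 controls against 7.86, 7.75 and 7.79 with mithramycin. The TC71 arrays gave 8.57, 8.63 and 8.49 against 7.91, 7.84 and 7.83. Treated and control arrays were far apart in each line. The change was -0.95 ± 0.07 in TC32 (adjusted p = 3.59e-07) and -0.70 ± 0.07 in TC71 (6.45e-06), a difference between lines of 0.24 ± 0.10 that missed the threshold (adjusted p = 0.154). Its 4 probe sets ran from -0.95 to -0.02 in TC32 and from -0.70 to 0.11 in TC71, so the size differed widely by set. VEGFB changed by 0.15 and 0.09 and VEGFC by 0.03 and 0.07, with no call, and VEGFC lay below the array median on every array.

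PFKFB3, a bifunctional enzyme of the PFKFB family, had the largest fall of all members in each line. It read 9.64, 9.73 and 9.66 in TC32 controls and 7.52 on all 3 treated arrays. TC71 gave 8.60, 8.48 and 8.52 and then 6.91, 6.77 and 6.87. Replicates lay close together, and no groups overlapped. The fall was 2.15 ± 0.06 in TC32, or 4.45-fold (adjusted p = 4.52e-10), and 1.68 ± 0.06 in TC71, or 3.21-fold (1.43e-09). The fall was larger in TC32, where the control level was also higher (difference 0.47 ± 0.08, adjusted p = 0.00256). At their brightest sets PFKFB2 and PFKFB4 were called in neither line, with changes between -0.13 and 0.13. A dim PFKFB2 set was called higher in each line, at 0.61 and 0.53, and the remaining PFKFB2 sets in neither. A second, dimmer PFKFB4 set was called higher in TC32, at 0.24, and was not called in TC71. PFKFB3 has 1 probe set here, the one with the suffix _s_at, which marks probes that can match several transcripts.

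**Figure D2:**
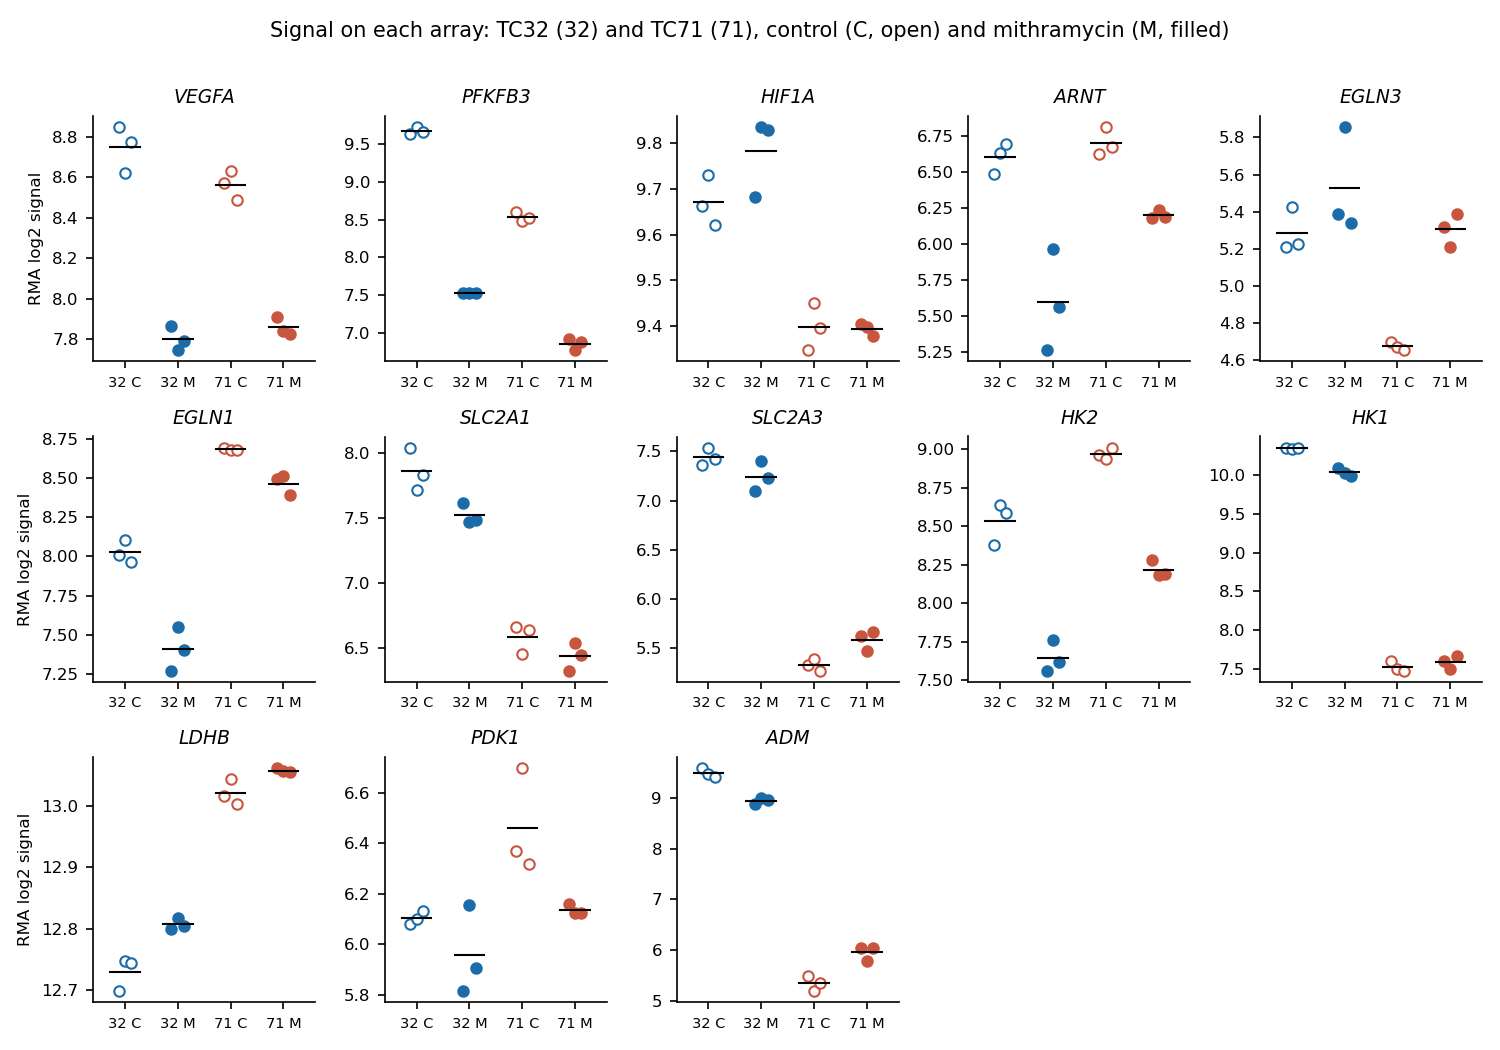
RMA log2 signal of 13 members on each of the 12 arrays (open points control, filled points mithramycin, bars group means, blue TC32 and red TC71), each panel on its own scale. PFKFB3, VEGFA, HK2 and ARNT drop in each line, HIF1A overlaps between control and treated arrays, and ADM falls in TC32 and rises in TC71.

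Of the glucose transporters, SLC2A1 fell in TC32 and SLC2A3 rose in TC71 at their brightest sets. SLC2A1, the widespread transporter GLUT1, read 8.04, 7.71 and 7.83 in TC32 controls and 7.61, 7.46 and 7.49 with mithramycin, a fall of 0.34 ± 0.09 without overlap, with its second, dim set at 0.07. TC71 arrays read 6.66, 6.45 and 6.63 against 6.32, 6.54 and 6.44, where the groups overlapped and the change of -0.15 ± 0.09 was not called. The SLC2A1 effects did not differ past the threshold (0.19 ± 0.13, adjusted p = 0.448). SLC2A3, the high-affinity transporter GLUT3, read 7.36, 7.54 and 7.42 in TC32 controls and 7.10, 7.40 and 7.23 with mithramycin, with overlap. In TC71 SLC2A3 read 5.33, 5.39 and 5.27 against 5.62, 5.47 and 5.67, without overlap. Its change of 0.26 ± 0.08 in TC71 was called and that of -0.20 ± 0.08 in TC32 was not, and the lines differed by 0.46 ± 0.12 (adjusted p = 0.031). The TC71 call ended without control replicate 3 or mithramycin replicate 1 or 3, and without TC71 control replicate 1 the call of SLC2A3 in TC71 (adjusted p = 0.0696) and that of the difference (adjusted p = 0.0645) ended. A second SLC2A3 set was called lower in TC32, at -0.36, and stood at 0.02 in TC71 without a call. The remaining set, at -0.05 and 0.19, was called in neither line.

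Of the 15 core glycolytic enzymes, 4 rose and 2 fell in each line, or 26.7% and 13.3%, beside 25.6% and 19.4% of all genes in TC32 and 19.4% and 16.1% in TC71. Of the 11 regulators, 0 rose and 5 fell in TC32 and 1 rose and 5 fell in TC71, so that 45.5% of them fell in each line. Without TC71 control replicate 2, 3 regulators fell in TC71. VEGFA and PFKFB3 had been named when the regulators were listed. The medians were -0.13 and -0.004 for regulators and 0.07 and 0.10 for enzymes. Apart from the hexokinases, 13 enzymes had changes between -0.07 and 0.86 in TC32 and between -0.15 and 0.55 in TC71. These counts set lists side by side, and no test of the difference between the lists was run.

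The core enzymes that fell were the hexokinases HK1 and HK2, which trap glucose as glucose 6-phosphate, in TC32, and HK2 and PFKP in TC71. HK2, the form most tied to tumour glycolysis, read 8.38, 8.64 and 8.59 in TC32 controls and 7.56, 7.76 and 7.62 with mithramycin. HK2 in TC71 read 8.97, 8.94 and 9.01 against 8.28, 8.18 and 8.19. The groups did not overlap, and the falls were 0.89 ± 0.08 (adjusted p = 1.54e-06) and 0.75 ± 0.08 (9.22e-06). All 3 HK2 probe sets fell in each line, with changes from -1.43 to -0.89 in TC32 and from -0.76 to -0.72 in TC71. HK1, the housekeeping form, read 10.34, 10.34 and 10.35 in TC32 controls against 10.09, 10.03 and 9.98, and 7.60, 7.51 and 7.48 in TC71 controls against 7.61, 7.50 and 7.67. It fell by 0.31 ± 0.06 in TC32 and overlapped in TC71 (0.07 ± 0.06), and the difference of 0.37 ± 0.08 was called (adjusted p = 0.0145).

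The enzymes that rose did so by less than HK2 fell, with ALDOC in front. ALDOC, the brain-type aldolase, read 5.17, 4.94 and 5.19 in TC32 controls and 6.01, 6.03 and 5.83 with mithramycin, and 5.20, 5.19 and 5.005 against 5.67, 5.76 and 5.62 in TC71. It rose by 0.86 ± 0.09 and 0.55 ± 0.09 without overlap. GPI, the isomerase after hexokinase, rose by 0.29 and 0.23, and PKM, the pyruvate kinase of most tissues, by 0.36 and 0.26. A second PKM set was called lower in TC32, at -0.91, and with the mean of its sets PKM changed by -0.27 there. PFKM, the muscle-type phosphofructokinase, rose in TC32 by 0.37 ± 0.05 and was not called in TC71 (0.10 ± 0.05), a difference of -0.27 ± 0.07 (adjusted p = 0.033). In TC71 TPI1 rose by 0.15, which turned to -0.02 with centring on housekeeping genes, and PFKP fell by 0.15, both without a call in TC32. Among 12 fits with 1 array removed, 7 lost the PFKP call, and each of the 6 without a TC71 array lost the TPI1 call.

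GAPDH, PGK1, PGAM1, ENO1, ENO2 and the lactate dehydrogenases were called in neither line at their brightest sets. GAPDH changed by -0.004 ± 0.05 and 0.05 ± 0.05, PGK1 by 0.06 and 0.08, ENO1 by 0.02 and 0.10, and LDHA, which turns pyruvate into lactate, by 0.004 and 0.008. A dim ENO1 set was called lower in TC32, at -0.86, and was not called in TC71 (-0.075). LDHB, the heart-type lactate dehydrogenase, read 12.70, 12.75 and 12.74 in TC32 controls and 12.80, 12.82 and 12.81 with mithramycin. In TC71 LDHB read 13.02, 13.04 and 13.00 and then 13.06, 13.06 and 13.05. Its groups did not overlap, yet the changes were 0.08 ± 0.04 and 0.04 ± 0.04 and were not called. Saturation calls were not used here, so a limit on such bright signals was not tested. PGK1 shows how far sets of one gene can part: its 5 other sets changed by 0.13 to 0.87 in TC32 and by 0.20 to 0.92 in TC71. Those at 0.32, 0.26 and 0.87 were called higher in TC32, over all probe sets. In TC71 those at 0.33, 0.23, 0.92 and 0.28 were called higher. The lack of a call for PGK1 thus belongs to its brightest set.

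**Figure D3:**
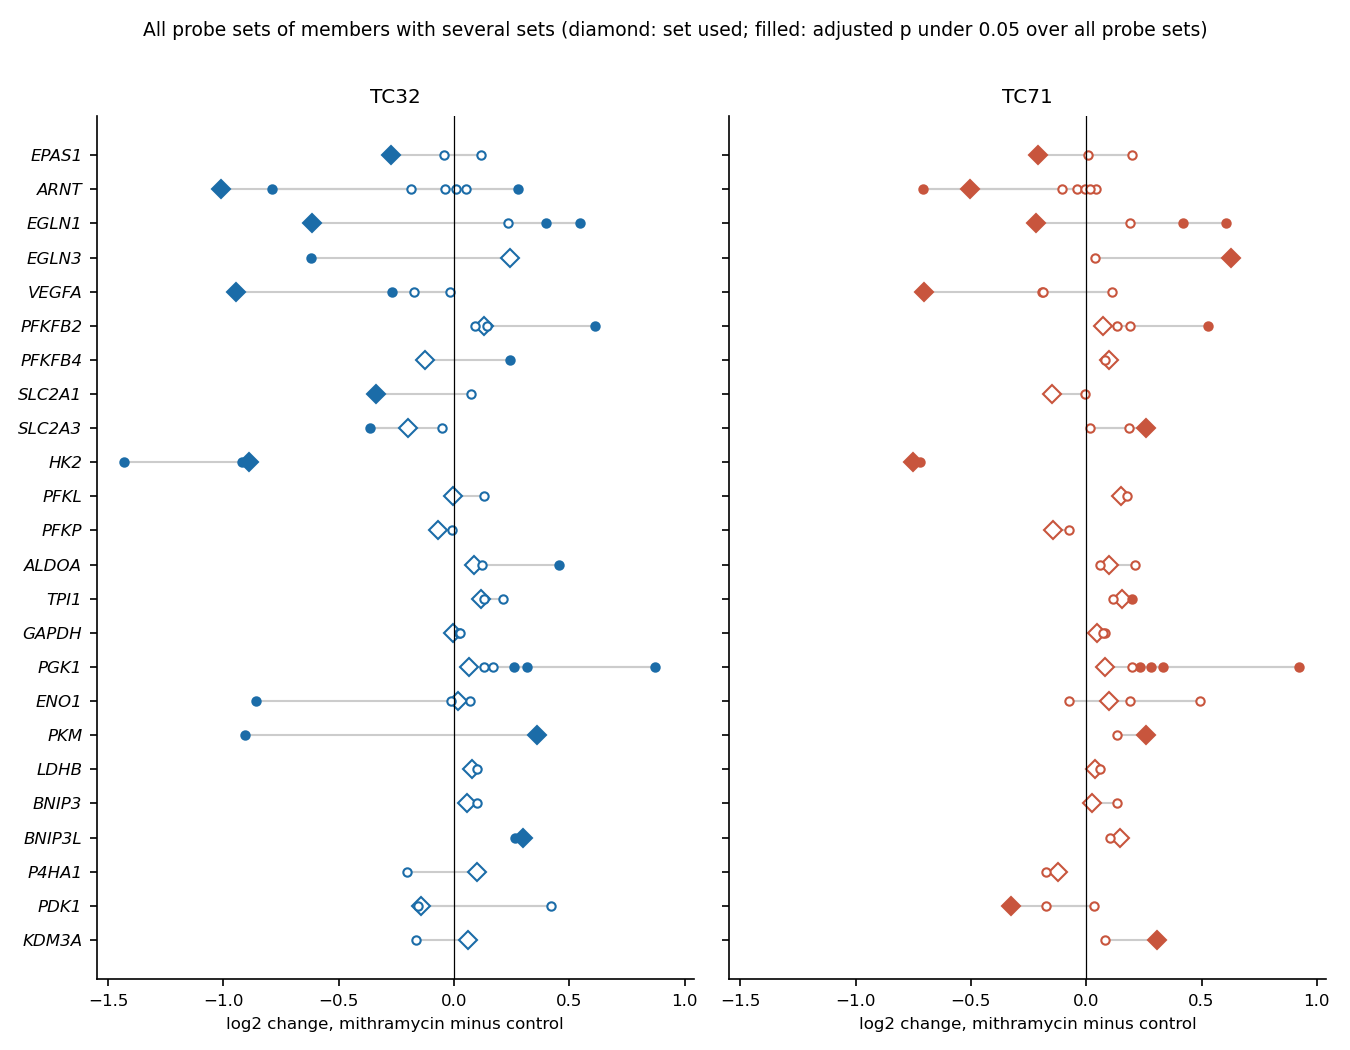
Log2 change with mithramycin for every probe set of the 24 members with several sets in TC32 (left) and TC71 (right), with diamonds for the set used and filled symbols for an adjusted p under 0.05 over all probe sets. The HK2 sets all lie on the left in each line, while those of EGLN1, ARNT, ENO1 and PKM lie on both sides of 0 in TC32.

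Of 85 probe sets of the members, 13 stood alone for their gene. In TC32, 6 members, and in TC71, 1 member, had another set called in the direction opposite to the sign of the set used. The exception in TC71 was EGLN1.

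The other hypoxia-induced members include ADM, which changed in opposite directions. ADM, the vasodilator peptide adrenomedullin, read 9.58, 9.46 and 9.41 in TC32 controls and 8.88, 8.995 and 8.96 with mithramycin. In TC71 it read 5.49, 5.18 and 5.36 and then 6.05, 5.79 and 6.03. Neither pair of groups overlapped. It fell by 0.54 ± 0.09 in TC32 (adjusted p = 4.27e-04) and rose by 0.61 ± 0.09 in TC71 (2.14e-04). The difference of 1.15 ± 0.13 was the largest among the members (adjusted p = 1.44e-04), and the calls in each line held under every alternative.

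PDK1, the kinase that shuts pyruvate out of mitochondria, read 6.08, 6.10 and 6.13 in TC32 controls and 5.81, 6.15 and 5.91 with mithramycin, with overlap. In TC71 it read 6.37, 6.70 and 6.32 against 6.16, 6.12 and 6.13, without overlap, with 1 control above the others. The change of -0.33 ± 0.10 in TC71 was called and that of -0.15 in TC32 was not, and the TC71 call ended without control replicate 2 or without any 1 of the mithramycin arrays. NDRG1, a stress-response gene, and KDM3A, a histone demethylase, rose in TC71 by 0.32 and 0.31, and BNIP3L, a receptor for mitochondrial autophagy, rose in TC32 by 0.30. BNIP3 and P4HA1 were called in neither line.

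Effects differed between lines for 6 members. The effect was higher in TC71 for EGLN1, PFKFB3, SLC2A3, HK1 and ADM, 13.5% of members against 6.27% of all genes, and lower for PFKM, against 3.72% of all genes. These differences use the same arrays as the changes in each line. Those of PFKFB3, HK1 and ADM held whichever array was left out. Without TC71 control replicate 1 the differences for EGLN1 (adjusted p = 0.0553), SLC2A3 and PFKM were no longer called, and others of the 12 fits that left out 1 array lost them as well.

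Control cells of the lines differed in most members. TC71 controls were higher for 13 members and lower for 17, or 35.1% and 45.9%, against 26.7% and 24.8% of all genes. ADM was 17.7-fold lower in TC71 (-4.14 ± 0.09), HK1 7.03-fold lower, SLC2A3 4.33-fold lower, ENO2, the neuronal enolase, 3.66-fold lower and SLC2A1 2.42-fold lower. PFKM was 2.64-fold higher and BNIP3L 2.18-fold higher. ALDOC, GPI, ARNT and LDHA were among the 7 not called, with differences between -0.05 and 0.10.

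**Figure D4:**
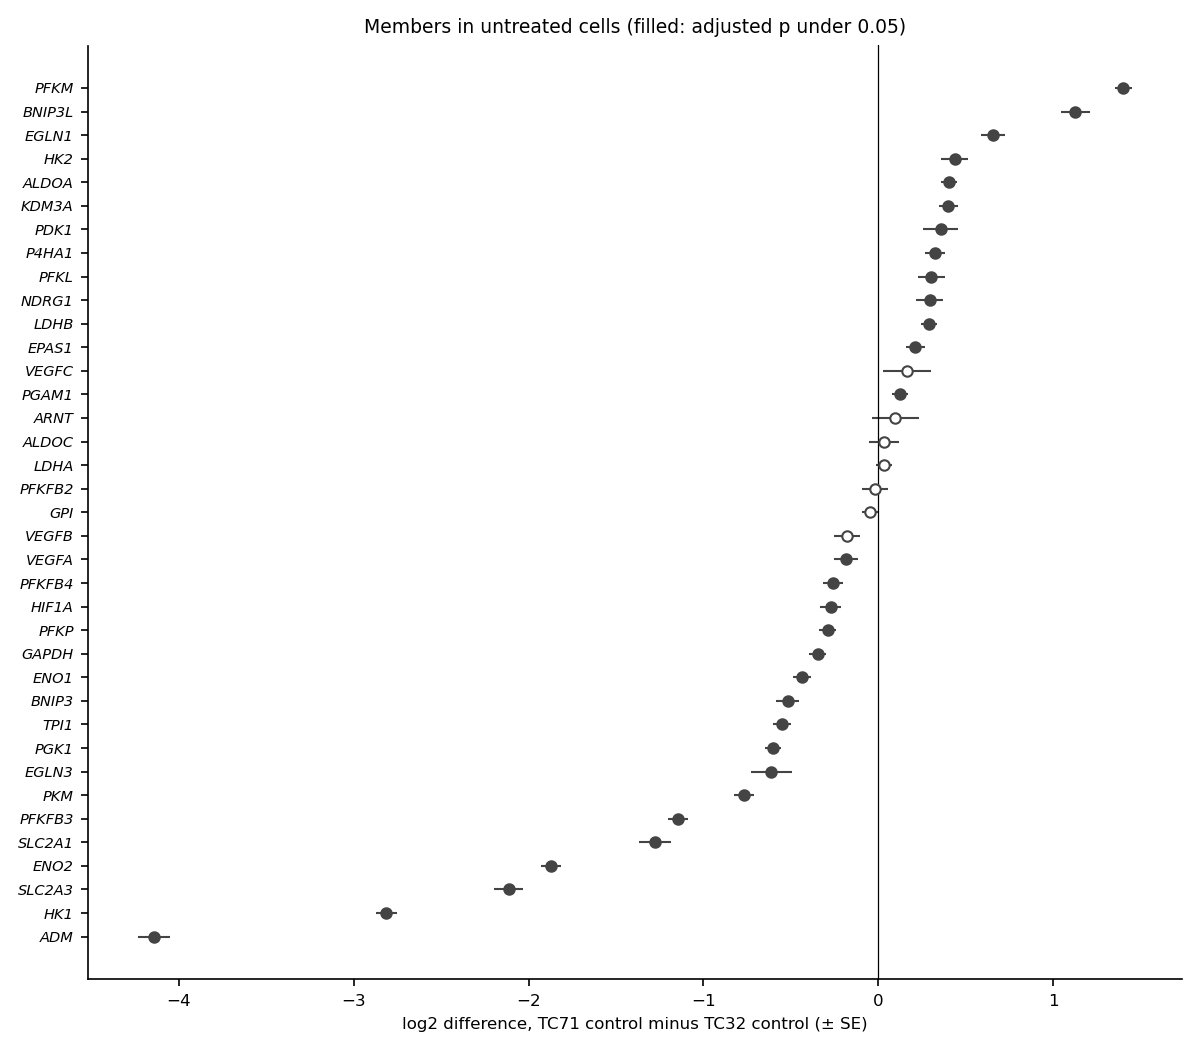
Log2 difference between TC71 controls and TC32 controls for each member (points, with the standard error as bars), in order of size, with calls filled. ADM at -4.14 and HK1 at -2.81 lie at the low end, and PFKM at 1.40 and BNIP3L at 1.13 at the high end.

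Beyond the members, 92 of 100 further genes of the same pathways were measured. In TC32 27 rose and 22 fell, or 29.3% and 23.9%, and in TC71 23 rose and 14 fell, or 25% and 15.2%, both near the shares of all genes. Among 27 other hypoxia-induced genes, 3 rose and 13 fell in TC32 (11.1% and 48.1%) and 5 rose and 8 fell in TC71 (18.5% and 29.6%), where 2 rose and 7 fell without control replicate 1. With hybridization controls these TC71 numbers were 6 and 3, and with housekeeping genes 1 and 12. Of all 19775 genes, 4421 rose and 2139 fell in TC71 with hybridization controls, and 1182 and 5736 with housekeeping genes. Among 10 genes of oxygen sensing, 2 rose and 5 fell in TC32 (20% and 50%) and 2 rose and 3 fell in TC71 (20% and 30%). Among 12 other glycolytic isoenzymes, 7 rose and 1 fell in TC32 (58.3% and 8.33%). In TC71 3 of these isoenzymes rose and 0 fell (25% and 0%). Of the TC32 risers, PGAM2, PGK2 and GAPDHS lay below the array median on every array, PKLR on 9 arrays and LDHC on 2. ENO3 and BPGM lay above it on every array. The shares of all genes were 25.6% higher and 19.4% lower in TC32 and 19.4% and 16.1% in TC71. With housekeeping genes as the scale, 2 of these isoenzymes rose and 2 fell in TC32, and 1 rose and 2 fell in TC71. Over all 92 genes 8 then rose and 36 fell in TC32 and 5 rose and 28 fell in TC71. On that scale 1656 of all 19775 genes rose and 6020 fell in TC32.

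The largest falls in the mean of both lines were those of CREBBP, KDM4B and KDM4C. CREBBP, an acetyltransferase that HIF recruits as coactivator, read 8.75, 8.80 and 8.70 in TC32 controls against 6.51, 6.92 and 6.41, and 8.42, 8.28 and 8.25 against 6.45, 6.26 and 6.39 in TC71, with a mean fall of 2.05. Its paralog EP300 fell by 0.93 and 0.81, and CITED2, which competes with HIF for these coactivators, by 0.999 and 0.67. KDM4B, a hypoxia-induced histone demethylase, changed by -1.71 ± 0.06 and -2.22 ± 0.06, and without the _x_at and _s_at sets these values were 0.04 and -0.01. KDM4C changed by -1.02 and -1.38.

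The largest rises were those of ENO3, TXNIP and BPGM. ENO3, the muscle enolase, read 5.69, 5.40 and 5.36 in TC32 controls against 6.34, 6.54 and 6.44, and 6.60, 6.60 and 6.55 in TC71 controls against 7.29, 7.31 and 7.36, and rose by 0.95 and 0.73. TXNIP, which restrains glucose uptake, rose by 0.57 and 0.75, and BPGM, which makes 2,3-bisphosphoglycerate, by 0.47 and 0.45. MPC1 and MPC2, the mitochondrial pyruvate carrier, also rose in each line. In TC32 the stress and sterol genes DDIT4 and INSIG2 fell by 0.53 and 0.75 and were not called in TC71.

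Scaling changed the split of calls. Centring the arrays on 9 housekeeping genes moved the median change of all genes by -0.17 (TC32) and -0.18 (TC71). The members then split into 3 higher and 16 lower in TC32 and 3 and 13 in TC71. Of all 19775 genes, 1656 were then higher and 6020 lower in TC32, and 1182 and 5736 in TC71. Centring on 18 hybridization control sets moved the median change of all genes by -0.15 in TC32 and by 0.08 in TC71. The members then split into 1 and 11 and into 8 and 4. All genes split into 1156 higher and 4507 lower in TC32, and 4421 and 2139 in TC71. With housekeeping genes, 3 core enzymes rose and 5 fell in TC32, and 1 rose and 2 fell in TC71. With hybridization controls, 1 rose and 2 fell in TC32, and 3 rose and 1 fell in TC71. The falls of PFKFB3, VEGFA and HK2 in each line and the rise of ALDOC held under every alternative that gave a value, while the rise of GPI was lost in each line with housekeeping genes. When the beta-actin 3′ minus 5′ value entered the fit as a covariate, EPAS1, ARNT, EGLN1, PFKP and PDK1 lost their calls in TC71, where 3 of 8 falls were left.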

How the data were processed

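Each sample was 1 one-colour oligonucleotide array. The deposited table holds log2 values per probe set, and RMA is named in the submitters' processing notes. Neither its version nor its settings were given in the sources used here. RMA equalizes probe distributions between arrays, so a shift shared by most genes is largely removed.

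Of 54675 probe sets, 41091 had 1 symbol in the platform annotation, 1801 several and 11721 none, and 62 were control sets. Symbols were updated through Entrez identifiers (41037 matches in RefSeq, GRCh38.p14). Genes took their brightest set, as defined in the report. No filter on low values was applied. limma 3.58.1 in R 4.3.3 fitted 4 group means over 12 arrays with empirical Bayes, and Benjamini-Hochberg adjustment ran over 19775 genes. The fit was tested on simulated data. Same-numbered arrays deviated together weakly in TC32 and not in TC71, and no replicate block was used. Depth has no counterpart in arrays, and 3 per group limit the precision. Scan dates were not used here.

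Members and lists were chosen with earlier results of these data known. The named members were VEGFA, PFKFB3, HIF1A and, in each role, the member with the largest mean change and the one with the largest difference of effects; of the other pathway genes, the 3 largest falls and rises called in the mean of both lines. Values of other members, ALDOC and EP300 for example, were added after they were seen. Motifs were counted by exact match in the RefSeq windows.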

Additional observations from a re-analysis of the deposited data

Results flagged for a closer look

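By the interaction term of the limma fit, the effect of mithramycin differed between the lines for 7 genes flagged among the members and the named pathway genes. TC71 minus TC32, the difference was 1.15 for ADM (adjusted p = 1.44e-04), 0.47 for PFKFB3 (0.00256), 0.46 for SLC2A3 (0.031), 0.40 for EGLN1 (0.0276) and 0.37 for HK1 (0.0145). ADM is the gene that fell in TC32 and rose in TC71, and PFKFB3 fell in each line, by less in TC71. The difference was -0.27 for PFKM (0.033), which rose in TC32, and -0.51 for KDM4B (0.00249), which fell further in TC71. Other genes given in the report were also called in this term. Among them were DDIT4 (0.56, adjusted p = 0.00406), INSIG2 (0.61, 0.0211), LUM (0.96, 0.0115) and PAPPA (-0.59, 0.0282).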

How the results depend on the processing

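Of 2604 values of single genes under the alternatives, 2436 kept their side of the threshold and, where called as reported, their direction. Another 103 lost a call, 59 gained one, and in 6 a called result changed sign. Sign changes of results not called as reported were not counted. Causes were not tested where none is named. The sign changed for EGLN1 with the mean of all probe sets (0.14 in TC32, 0.25 in TC71), PKM in TC32 with the same mean (-0.27), SLC2A1 in TC32 and KDM4B in TC32 without _x_at and _s_at sets (0.0723 and 0.0371), and TPI1 in TC71 with housekeeping centring (-0.0219). Members called higher in TC32, 5 as reported, numbered 8 with the mean of sets, 3 with housekeeping centring, 1 with hybridization controls, 8 with quantile normalization run again and 9 with an eBayes trend. The 9 falls in TC32 became 16 with housekeeping centring. The 2 falls among core enzymes in TC32 became 4 with the mean of sets and 5 with housekeeping centring, and the 5 among regulators became 3 with the mean of sets and 3 without _x_at and _s_at sets, where VEGFA and PFKFB3 have no value. In TC71 the 9 rises became 4 without _x_at and _s_at sets and 3 with housekeeping centring. The 8 falls became 5 with the mean of sets, 5 without _x_at and _s_at sets, 13 with housekeeping centring, 4 with hybridization controls and 3 with the beta-actin covariate, and ranged from 4 to 8 when 1 array was left out. The 2 falls among core enzymes in TC71 became 1, PFKP being lost, with the mean of sets, without _x_at and _s_at sets, with the array median, with hybridization controls, with the line fitted alone, with the beta-actin covariate and with the replicate block, and ranged from 1 to 2 when 1 array was left out. The 5 among regulators became 3 with the mean of sets, 3 without _x_at and _s_at sets, 3 with hybridization controls and 2 with the beta-actin covariate, and ranged from 3 to 5 when 1 array was left out; without TC71 control replicate 2 the ARNT call ended. Effects higher in TC71, 5 as reported, became 11 with hybridization controls and 3 with the beta-actin covariate, and ranged from 3 to 7 when 1 array was left out. The 1 lower effect, PFKM, became 0 without _x_at and _s_at sets, with the array median, with hybridization controls, with the beta-actin covariate and with the replicate block, 2 with quantile normalization run again and 2 over genes whose mean was at least 6, and ranged from 0 to 1 when 1 array was left out. The 13 members higher in TC71 controls became 5 without _x_at and _s_at sets. Same-numbered arrays correlated in their deviations at 0.04 to 0.236 in TC32 and at -0.071 to -0.012 in TC71. Arrays with different numbers correlated at -0.186 to 0.117 in TC32 and at -0.03 to 0.046 in TC71. Some pairing by number in TC32 thus remains possible. With the replicate block 6 members rose and 9 fell in TC32, and 8 rose and 7 fell in TC71. Calls of signal over background or saturation were not used here.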
